A study of Mus musculus with 12 samples.

Results

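The genes on either side of Tert, the gene removed in the mice studied here, were described for how their transcripts differed between wild-type and knockout brain. The set holds 84 protein-coding genes whose annotated start lies on mouse chromosome 13 between 66 and 81 Mb (genome build GRCm38), and which averaged 10 or more normalized counts in the 6 cortex libraries or the 6 hippocampus libraries. Tert itself and Adcy2 were left out of the set by rule. The window holds 95 protein-coding genes before that minimum, and the tables hold 55487 gene rows in all. Transcripts had been measured by sequencing total RNA from 4 groups of 3 libraries, namely cerebral cortex and hippocampus from mice labelled mTert WT (wild type here) and from mice labelled mTert KO (G1) (knockout here), all of strain C57BL/6. The names of the deposited data add Homo to the knockout label, read here as homozygous. The labels do not say how the targeted allele was made, and the sources used here give no age of the mice, number of backcrosses or sequencing batch. Whether the 3 libraries of a group come from 3 animals is not stated, so the p-values reflect only how much these libraries vary, part of which may be technical. In a piece of whole tissue, fewer cells of a type and less RNA per cell cannot be told apart.

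Tert encodes the catalytic protein of telomerase, the enzyme that adds telomere repeats to chromosome ends. Genes that lie near a targeted gene on the same chromosome are inherited together with the targeted allele, so they form a natural group to look at on their own in any comparison of knockout with wild-type mice. This stretch of chromosome 13 combines a large cluster of zinc finger genes, most of which encode DNA-binding proteins of the KRAB family and include the regulators of sex-limited protein (Rsl), with unrelated housekeeping, transport and neuronal genes.

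By role, the 84 genes were 27 zinc finger genes, 10 mitochondrial and metabolic genes, 12 genes for DNA, RNA and chromatin factors, 11 for trafficking, cytoskeleton and calcium sensing, 4 membrane carriers, 3 peptidases or their inhibitors, and 17 others. The list names are loose: Mterf3 and Ptdss1 are among the 17 others, and Ube2ql1 and Fam172a are in the trafficking list. All 84 genes were tested in hippocampus and 80 in cortex. Of the 84, 36 had exons that overlap those of another gene, and 25 shared over 10% of their 50-base stretches of transcript sequence with another gene (15 of the 25 were zinc finger genes). The sources used here do not give how reads were assigned where genes overlap or share sequence, so values of such genes are uncertain.

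Taking 1 deposited step as 1 read, the libraries held 68424934 to 77972013 reads in cortex and 72401909 to 86639113 in hippocampus. Tert itself checked the labels. In wild-type cortex it had 206, 105 and 241 normalized counts, and it was listed at 0 in the 3 knockout cortex libraries. Wild-type hippocampus had 147, 184 and 128, against 0, 6.31 and 0 in knockout, so the groups did not overlap in either tissue. Adcy2, the other excluded gene, had 11167 ± 324 in wild-type and 12681 ± 109 in knockout cortex (SD, n = 3 each; limma adjusted p = 0.136) and 12531 ± 1140.3 and 14066 ± 403 in hippocampus (0.0911). One library stood apart along exonic length, namely wild-type cortex library 2. The median log2 difference of this library from the mean of wild-type libraries 1 and 3 was 0.47 over the 9 genes with up to 2 kb of exon. Over the 15 genes with over 8 kb it was -0.36. Library 2 lay outside the range of libraries 1 and 3 in 70 of the 80 flanking genes tested in cortex. Any 1 of 3 like libraries lies outside the range of the other 2 in many genes, so that count is given as a description. A chi-square of the difference in reads, averaged over genes, was 102 and 93.9 between library 2 and wild-type cortex libraries 1 and 3. Between libraries 1 and 3 it was 9.54. Cortex values are therefore given with and without this library where they rest on it.

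In cortex, 3 of the 80 flanking genes passed the test (3.75%; limma on log2(normalized count + 1), Benjamini-Hochberg adjusted p below 0.05), while 1.94% of all 21945 genes tested did. Rfesd, which encodes a protein with a Rieske iron-sulfur domain, rose, against 1.28% of all genes called higher. Of the 2 that fell, against 0.661% of all genes called lower, Adamts16, a secreted metalloproteinase, is described here. Elsewhere on chromosome 13, 10 of 496 protein-coding genes tested were called (9 higher and 1 lower, 2.02%). The wild-type and knockout libraries did not overlap in 26 of the 80 flanking genes (32.5%), against 28.3% of all genes tested and 29.2% of the genes elsewhere on the chromosome. The median log2 fold change was -0.02 over the flanking genes and -0.01 over all genes tested.

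Leaving out wild-type cortex library 2 raised the count to 16 of 81 flanking genes, 5 higher and 11 lower (19.8%), and raised the share over all genes to 21.4%. Elsewhere on chromosome 13 that share was 22.4%. All 3 genes called with every library were among the 16. With any other cortex library left out, 1 flanking gene was called.

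In hippocampus, 22 of the 84 flanking genes passed the test (26.2%), against 29.2% of all 22337 genes tested. Among them, 10 rose (11.9%, against 14.1% of all genes) and 12 fell (14.3%, against 15.1%). Elsewhere on chromosome 13, 84 genes rose and 86 fell of 515 tested, which is 33.0%. The groups did not overlap in 33 of the 84 flanking genes (39.3%), against 45.8% of all genes tested and 50.1% of genes elsewhere on the chromosome. Median log2 fold changes were 0.02 in the flanking genes, 0.01 elsewhere on chromosome 13 and 0.02 over all genes tested. The split between higher and lower depended on the scaling: with quantile normalization 15 flanking genes were called higher and 11 lower. The count also rested on single libraries, being 12 without knockout library 1, 14 without knockout library 2 and 12 without wild-type library 3.

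**Figure D1:**
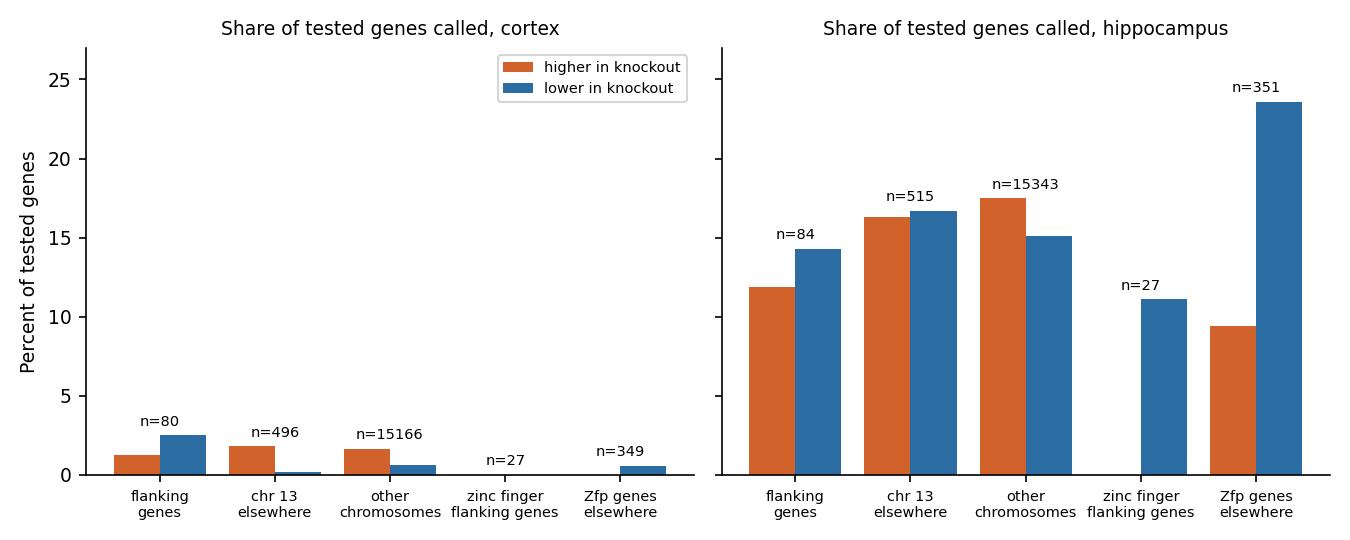
Share of tested genes called higher (orange) or lower (blue) in knockout, in percent, for the genes flanking Tert, protein-coding genes elsewhere on chromosome 13 and on other chromosomes, the zinc finger genes among the flanking genes, and genes named Zfp elsewhere; n is the number tested. In hippocampus the flanking genes reach 11.9% higher and 14.3% lower, and no zinc finger gene of the window is called higher.

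Set against other windows of 15 Mb along chromosome 13, the share of flanking genes called in hippocampus was the lowest of 8, at 26.2%, the others reaching up to 40.9% (6 to 21 Mb). In cortex the window's 3.75% was second to 6.82% in the window from 6 to 21 Mb, where 3 of 44 genes were called, but without wild-type cortex library 2 its 19.8% was below the shares of 5 other windows (20.5% to 29.5%). These shares rest on 42 to 112 genes tested per window in cortex. An absolute log2 fold change of at least 0.5 occurred in 11.2% of flanking genes and 9.07% of genes elsewhere on the chromosome in cortex, and in 13.1% and 16.7% in hippocampus.

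Distance from Tert was then examined in 3 classes chosen after the values were seen. Within 1 Mb, 0 of 20 genes were called in cortex by limma, where 1.94% of all genes were called. At an unadjusted p below 0.05 there were 4 of the 20, against 4040 of all 21945 genes tested in cortex. In hippocampus 3 of these 22 nearest genes were called (13.6%, against 29.2% of all genes): Clptm1l and Sdha rose and Ccdc127 fell. None of the 20 tested in cortex or of the 22 in hippocampus reached an absolute log2 fold change of 0.5. Irx2 and Slc6a3 were too low to be tested in cortex. From 1 to 3 Mb, 3 of 14 genes were called in cortex and 8 of 15 in hippocampus (53.3%, 5 higher and 3 lower, or 6 of 15 with 1 lower once the trend along transcript length was removed). Beyond 3 Mb the calls were 0 of 46 in cortex, with 7 at an unadjusted p below 0.05, and 11 of 47 in hippocampus (23.4%). With the length trend removed, the hippocampus share was 4.55% within 1 Mb (Sdha only) and 19.1% beyond 3 Mb, against 25.6% of all genes. The cortex counts rest on wild-type library 2: without it they were 3 of 20 (1 higher and 2 lower), 7 of 14 and 6 of 47, where 21.4% of all genes were called. The share called was thus highest in the middle class in both tissues, and the difference between classes was not tested.

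**Figure D2:**
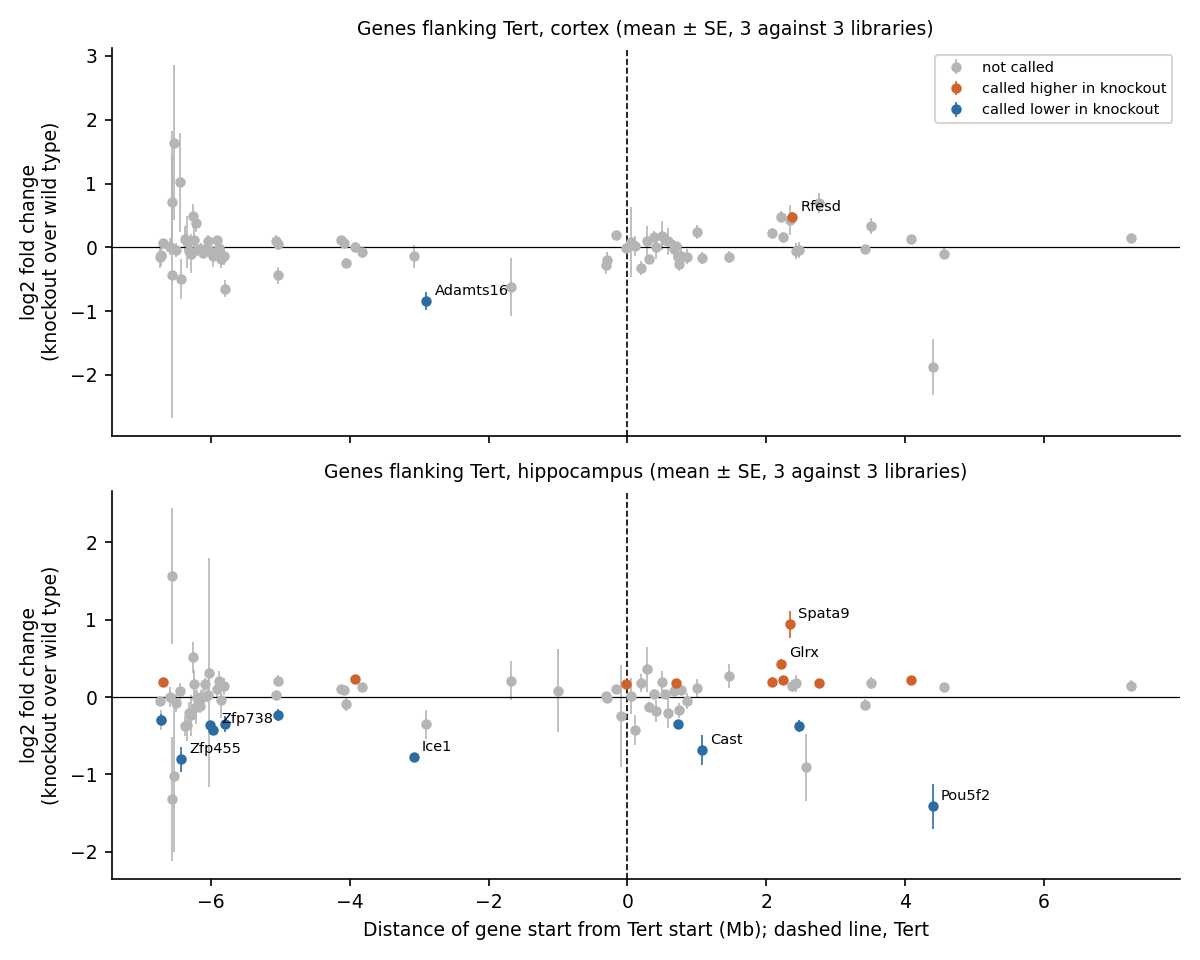
Log2 fold change (knockout over wild type, vertical axis) with its standard error for the flanking genes reported here against the distance of its start from that of Tert in Mb (horizontal axis; dashed line, Tert), in cortex (top) and hippocampus (bottom); orange and blue points were called higher and lower. The tested genes within 1 Mb of Tert all lie within 0.5 of 0, and Spata9 and Pou5f2 lie 2.34 and 4.4 Mb after it.

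The immediate neighbours of Tert differed little. Clptm1l, a multi-pass membrane protein whose gene starts 22.9 kb before Tert, had 6674, 7070.2 and 6923 normalized counts in wild-type hippocampus and 7676, 7907 and 7604 in knockout. All 3 knockout libraries lay above all wild-type libraries, and the log2 fold change was 0.17 ± 0.04 (SE; limma adjusted p = 0.0168). That call was lost without knockout library 1 (adjusted p = 0.0508), knockout library 2 (0.072) or wild-type library 3 (0.0674). With the length trend removed Clptm1l was not called in hippocampus either (0.11, limma adjusted p = 0.0822). In cortex Clptm1l had 6030 ± 453 in wild type and 5995 ± 60.7 in knockout (SD, n = 3 each), with overlapping groups.

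Slc6a19, which encodes a neutral amino acid carrier known from kidney and intestine and starts 52.8 kb after Tert, had 8.01 to 24.8 normalized counts in wild-type cortex and 10.7 to 30.0 in knockout. Slc6a3, the dopamine transporter, 90.2 kb before Tert, was at or near the floor in cortex (0, 0 and 9.57 in wild type; 0, 10.3 and 11.8 in knockout) and was not tested there. In hippocampus it had 28.5, 11.8 and 4.23 in wild type and 11.7, 12.6 and 5.80 in knockout. Slc6a3 was too low for a change to be detectable at this depth, while Slc6a19 in hippocampus had 32.9 ± 3.62 in wild type and 33.3 ± 5.06 in knockout (SD, n = 3 each; log2 fold change 0.01 ± 0.24, SE). Lpcat1, a lysophosphatidylcholine acyltransferase, had 2764 ± 93.8 in wild-type and 3145 ± 125 in knockout cortex with groups that did not overlap, a difference of 0.19 (log2) that missed the threshold (adjusted p = 0.189). Without wild-type cortex library 2 Lpcat1 was called higher (0.16, adjusted p = 0.0362). Mrpl36, a mitochondrial ribosomal protein, had overlapping groups in both tissues (-0.20 in cortex, or -0.05 without wild-type cortex library 2, and -0.02 in hippocampus on the log2 scale).

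A run of adjacent genes from Ell2 to Rfesd, 2.08 to 2.37 Mb after Tert, held 4 of the 8 hippocampus calls of its distance class and 1 of the 3 cortex calls. The run was picked out after its values were seen. In order of position it comprises Ell2, a transcription elongation factor, Glrx, the cytosolic glutaredoxin that reduces mixed disulfides with glutathione, Rhobtb3, an atypical member of a family of small GTPases, Spata9, a gene named for its expression in spermatogenesis, and Rfesd.

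Within the run, Glrx had 1032, 1187 and 1069.7 normalized counts in wild-type hippocampus and 1501, 1458 and 1477 in knockout. The knockout libraries were all higher and close together, at 135% of the wild-type mean, and Glrx rose by 0.43 ± 0.06 on the log2 scale (limma adjusted p = 0.00237). In cortex it had 1312, 1605 and 1339 against 2051, 1965 and 1896, also without overlap, at 139% of wild type. That cortex difference of 0.48 ± 0.09 missed the threshold (adjusted p = 0.0544), and passed it without wild-type cortex library 2 (0.57, adjusted p = 0.000161).

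Spata9 had 46.8, 47.1 and 59.3 normalized counts in wild-type hippocampus and 103, 92.0 and 101 in knockout, 193% of the wild-type mean. It rose by 0.94 ± 0.18 on the log2 scale (adjusted p = 0.00686), the largest rise among flanking genes called in hippocampus. Its cortex groups overlapped, with 58.4 to 91.1 in wild type and 75.5 to 111 in knockout.

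Rfesd had 590.4, 514 and 567 normalized counts in wild-type cortex and 786, 767 and 758 in knockout. All knockout libraries were higher, at 138% of the wild-type mean, and Rfesd rose by 0.47 ± 0.09 (log2; limma adjusted p = 0.046). The call was lost without wild-type cortex library 1 (adjusted p = 0.104), wild-type library 3 (0.158) or knockout library 1, 2 or 3 (0.177, 0.211 and 0.214), and held without wild-type library 2. In hippocampus the groups overlapped, with 530.1, 619 and 557 against 637, 620 and 618 (log2 fold change 0.14, adjusted p = 0.214). The difference between the tissues was -0.33 ± 0.11 and was not called (adjusted p = 0.122).

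Ell2 and Rhobtb3 rose by small amounts in hippocampus. Ell2 had 1345, 1508 and 1491 normalized counts in wild type and 1619, 1699 and 1662 in knockout (log2 fold change 0.20, adjusted p = 0.0387), and its call was lost with each hippocampus library left out except wild-type library 2 (adjusted p 0.0716 to 0.124 in the 5 fits). Rhobtb3 had 1547, 1608 and 1586 against 1866, 1738 and 1912 (0.22, adjusted p = 0.0181). Its call was lost without knockout library 1 (0.062), knockout library 3 (0.0667) or wild-type library 3 (0.0657).

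The promoter sequences of 4 genes are printed because these genes passed the test in 1 tissue and are described in full: Glrx and Rfesd from the run, and Ice1 and Pou5f2 further on. They come from RefSeq (GRCm38.p6), cover 250 bases before to 50 after the start, and are written 5′ to 3′ in the direction of the gene. Capitals mark matches, on either strand, to 4 motifs: the TATA box TATAAA, the CCAAT box CCAAT, the E-box CACGTG and the GC box GGGCGG.
Glrx, chr13:75839635-75839934, plus strand: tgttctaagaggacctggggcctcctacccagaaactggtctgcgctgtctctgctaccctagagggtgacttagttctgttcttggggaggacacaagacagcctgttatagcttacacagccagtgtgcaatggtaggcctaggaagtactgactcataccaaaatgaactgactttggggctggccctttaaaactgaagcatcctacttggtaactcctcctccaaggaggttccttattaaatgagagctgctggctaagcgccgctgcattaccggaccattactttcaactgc
Rfesd, chr13:76018557-76018856, minus strand: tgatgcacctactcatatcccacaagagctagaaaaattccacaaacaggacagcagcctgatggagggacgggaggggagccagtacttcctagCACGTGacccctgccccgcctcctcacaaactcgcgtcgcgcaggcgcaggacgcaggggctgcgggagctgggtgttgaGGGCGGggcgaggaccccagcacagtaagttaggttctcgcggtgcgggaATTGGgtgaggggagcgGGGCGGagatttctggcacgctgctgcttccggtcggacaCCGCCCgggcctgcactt
Ice1, chr13:70637585-70637884, minus strand: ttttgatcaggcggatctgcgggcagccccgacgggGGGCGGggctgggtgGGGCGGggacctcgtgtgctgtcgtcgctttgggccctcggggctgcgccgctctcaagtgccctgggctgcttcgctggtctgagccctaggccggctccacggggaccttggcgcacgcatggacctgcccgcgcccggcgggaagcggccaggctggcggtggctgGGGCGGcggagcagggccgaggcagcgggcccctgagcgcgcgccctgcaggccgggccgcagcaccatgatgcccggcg
Pou5f2, chr13:78024652-78024951, plus strand: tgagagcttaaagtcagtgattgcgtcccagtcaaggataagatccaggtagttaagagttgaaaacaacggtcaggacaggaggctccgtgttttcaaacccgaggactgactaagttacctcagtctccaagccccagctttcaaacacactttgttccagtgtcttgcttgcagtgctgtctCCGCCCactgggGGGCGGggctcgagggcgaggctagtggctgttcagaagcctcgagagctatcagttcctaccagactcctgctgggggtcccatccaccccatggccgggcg
The Glrx window had no match and 4 CG dinucleotides, whereas the Rfesd window had 1 E-box, 1 CCAAT box and 3 GC boxes with 22 CG dinucleotides. Ice1 had 3 GC boxes and 34 CG dinucleotides, and Pou5f2 had 2 GC boxes and 11. Over all 32851 promoters of that length, the GC box occurred in 35.7%, the CCAAT box in 37.4%, the TATA box in 13.6% and the E-box in 7.15%. Of the 68 flanking genes with an entry, 32 held the GC box, 25 the CCAAT box, 9 the E-box and 1 the TATA box. The median number of CG dinucleotides was 14 over these 68 promoters and 7 over all. The flanking genes had to reach a minimum level in brain, while the promoters over all did not, so the 2 sets are not alike. Some windows of flanking genes lie far from the annotated gene start, such as those of Mctp1 (195062 bases) and Nsun2 (78270). A match describes letters in the window and not binding.

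**Figure D3:**
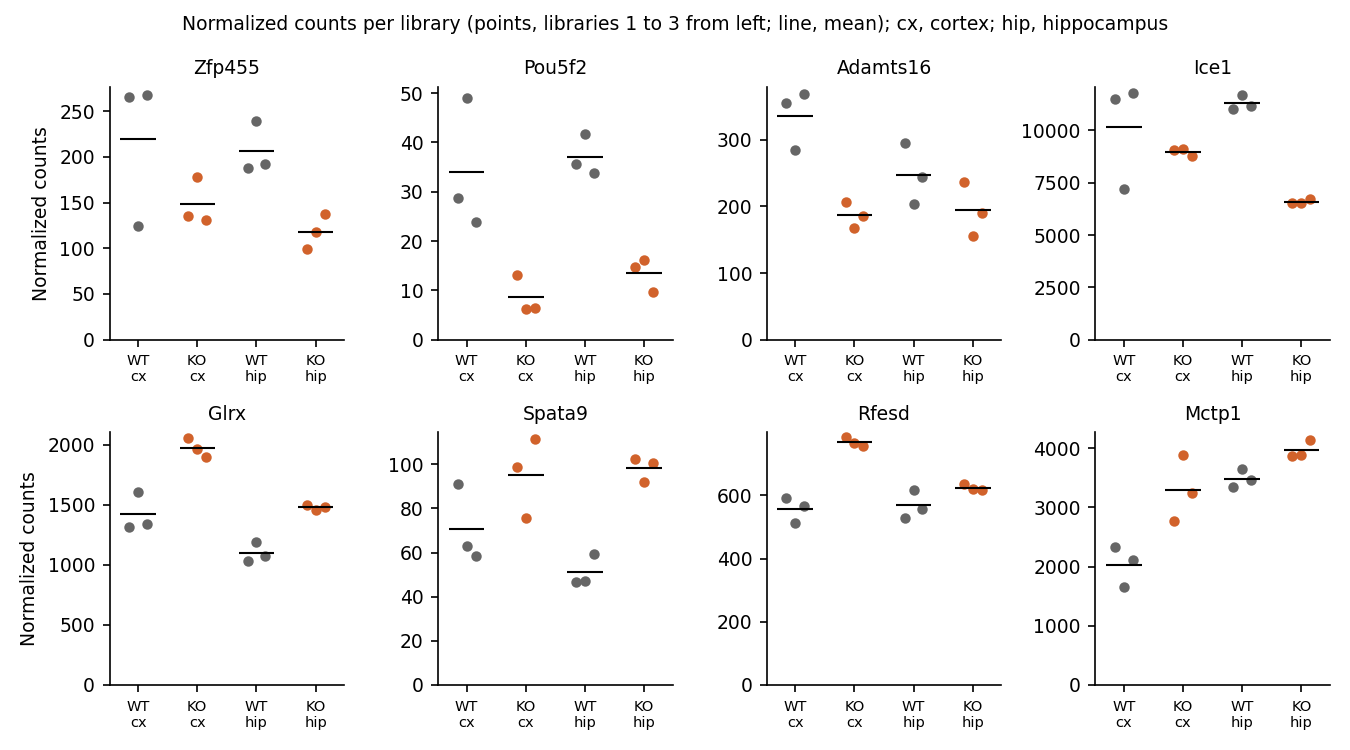
Normalized counts (vertical axis, linear from 0) of 8 flanking genes in each library of wild-type (WT, grey) and knockout (KO, orange) cortex (cx) and hippocampus (hip); points are libraries 1 to 3 from left to right and lines are means. Rfesd and Adamts16 were called in cortex, and Zfp455, Ice1, Glrx, Spata9, Pou5f2 and Mctp1 in hippocampus, and the tissues were scaled separately, so levels are compared within a tissue only.

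Farther from Tert lie Ice1, Pou5f2 and Adamts16. Ice1, a subunit of the little elongation complex that acts in transcription of small nuclear RNA genes, starts 3.08 Mb before Tert (70551707 to 70637634, minus strand; 11.2 kb of exon). It had 11039, 11699 and 11173 normalized counts in wild-type hippocampus and 6526, 6548 and 6713 in knockout. The 2 groups were each tight and far apart, the knockout mean being 58.3% of wild type, and Ice1 fell by 0.78 ± 0.04 on the log2 scale (limma adjusted p = 2.53e-05). With the trend along exonic length removed, its change was -0.50 (adjusted p = 0.00011). In cortex it had 11509, 7190.2 and 11804 in wild type, library 2 being the low one, and 9053, 9115 and 8784 in knockout. Those groups overlapped (-0.14 ± 0.18, adjusted p = 0.708), while without wild-type library 2 Ice1 was called lower (-0.38, adjusted p = 7.97e-05). The difference between tissues was -0.63 ± 0.20 and was not called (adjusted p = 0.102).

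Pou5f2, a POU-domain transcription factor gene that lies within the body of Fam172a on the same strand (78024902 to 78026295), had low counts. Wild-type hippocampus had 35.6, 41.7 and 33.9 normalized counts and knockout had 14.6, 16.2 and 9.67, which is 36.5% of the wild-type mean without overlap (log2 fold change -1.41 ± 0.30, limma adjusted p = 0.0108). In cortex the values were 28.7, 49.1 and 23.9 against 13.2, 6.21 and 6.42, also without overlap, but the change of -1.87 ± 0.43 missed the threshold (adjusted p = 0.0866). Without wild-type cortex library 2 it passed (-1.58, adjusted p = 0.0468). Its host gene moved the other way in hippocampus: Fam172a, a factor linked to splicing and chromatin, rose from 2766 ± 98.1 to 3220 ± 146 (SD, n = 3 each; 0.22, adjusted p = 0.0154). That call was lost without knockout library 1 (0.0562) or knockout library 3 (0.0597).

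Adamts16 (70727802 to 70841811, minus strand), next to Ice1 in position, had 356, 285 and 368 normalized counts in wild-type cortex and 207, 168 and 185 in knockout. The groups were apart, the knockout mean was 55.5% of wild type, and Adamts16 fell by 0.84 ± 0.15 on the log2 scale (limma adjusted p = 0.0424). The call was lost without wild-type cortex library 1 (adjusted p = 0.129), wild-type library 3 (0.158) or knockout library 1, 2 or 3 (0.111, 0.2 and 0.204). It held without wild-type cortex library 2, at -0.96 (adjusted p = 0.0011). Hippocampus values overlapped, at 295, 203 and 243 against 237, 155 and 189.5 (-0.35, adjusted p = 0.21).

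Zinc finger genes were the largest family of the window. None of 27 was called in cortex by limma, and 2 of 27 were called lower without wild-type cortex library 2. With all cortex libraries, 2 of 27 had an unadjusted p below 0.05, against 4040 of all 21945 genes. In hippocampus 3 of 27 fell and none rose (11.1%, against 29.2% of all genes). Among 351 genes named Zfp elsewhere in the genome, 33 rose and 83 fell in hippocampus (33.0%), and in cortex 2 of 349 fell (17.8% were called without wild-type cortex library 2). No difference between these shares was tested, and 15 of the 27 shared over 10% of their sequence with other genes.

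Zfp455 had 188, 239 and 193 normalized counts in wild-type hippocampus and 99.6, 117 and 137 in knockout. The groups did not overlap, the knockout mean was 57.2% of wild type, and Zfp455 fell by 0.81 ± 0.16 on the log2 scale (limma adjusted p = 0.00966). In cortex wild-type libraries 1 and 3 had 265 and 268 but library 2 had 124, against 135, 178 and 131 in knockout, and Zfp455 was called lower (-0.86, adjusted p = 0.00651) without library 2 only. Zfp729a fell from 1306 ± 32.8 to 1016 ± 13.7 in hippocampus (SD, n = 3 each; -0.36, adjusted p = 0.00171). Zfp738, with 15.1 kb of exon the longest zinc finger transcript unit named here, fell from 2722 ± 91.1 to 2033 ± 112 (-0.42, adjusted p = 0.00129). With the length trend removed neither was called: Zfp729a was at -0.16 (adjusted p = 0.0705) and Zfp738 at 0.00 (adjusted p = 0.988). Of the other members, Zfp456 was higher in knockout in both tissues without a call (0.49 in cortex, 0.51 in hippocampus).

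Within the zinc finger cluster, 3 overlapping gene models, picked out after their values were seen, had counts that varied widely while their sum did not. Zfp708, Gm28557 and Rslcan18 lie on the same strand, and Gm28557 is a model that contains Zfp708, 94.6% of whose 50-base stretches it shares. In cortex Zfp708 had 218, 0 and 166 normalized counts in wild type and 6.58, 7.24 and 241 in knockout, while Gm28557 had 49.5, 292 and 127 in wild type and 286, 330.1 and 86.7 in knockout. The 3 libraries with 166 or more for Zfp708 had 127 or fewer for Gm28557, and the other 3 had 286 or more. The sum over the 3 models was 300.2, 292 and 306 in wild type and 317, 351 and 364 in knockout, so the highest library had 1.25 times the lowest. In hippocampus Zfp708 ran from 13.2 to 246 across libraries, while the sum ran from 222 to 341, a ratio of 1.54. None of the 3 models was called in either tissue. Rsl1, a neighbour in the cluster, had 31.7 normalized counts in wild-type cortex library 1 and 246 to 318 in the other 5 cortex libraries.

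**Figure D4:**
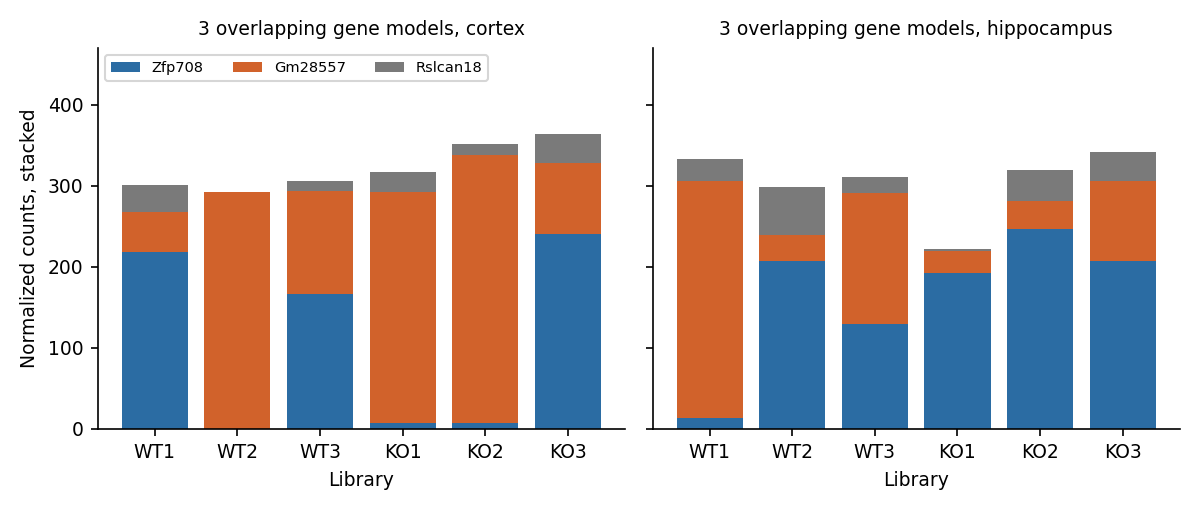
Stacked normalized counts (vertical axis, linear from 0) of 3 overlapping gene models, Zfp708, Gm28557 and Rslcan18, in each library (horizontal axis; WT, wild type; KO, knockout) of cortex (left) and hippocampus (right). The split between Zfp708 and Gm28557 changes from library to library within a group, while the total stays between 292 and 364 in cortex and between 222 and 341 in hippocampus.

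The mitochondrial and metabolic genes held 0 of 10 calls in cortex by limma. An unadjusted p below 0.05 occurred in 4 of the 10 there, against 4040 of all 21945 genes. Without wild-type cortex library 2, 4 of 10 were called (2 higher and 2 lower, against 21.4% of all genes). In hippocampus 3 of 10 were called, near the 29.2% of all genes: Glrx and Sdha rose and Ccdc127 fell. Mterf3 and Ptdss1, both called in hippocampus, are counted with the other members and not among these 10. Sdha, the flavoprotein subunit of succinate dehydrogenase, had 22015, 23464 and 22912 normalized counts in wild-type hippocampus and 25875, 26266 and 25662 in knockout. The knockout libraries were all higher (0.19 ± 0.04 on the log2 scale, limma adjusted p = 0.0112), a call lost without knockout library 2 (0.0549) or wild-type library 3 (0.0578). In cortex its 6 libraries lay between 23097 and 23668, with a log2 fold change of 0.02. Ccdc127, a coiled-coil protein next to Sdha in position, fell from 5853 ± 504 to 4572 ± 71.1 in hippocampus (SD, n = 3 each; -0.35, adjusted p = 0.00559). It overlaps Lrrc14b on the opposite strand and shares 27.9% of its stretches, and with the length trend removed its difference was -0.16 (adjusted p = 0.0705).

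Among the 12 DNA, RNA and chromatin factors, none of 11 tested in cortex was called by limma. An unadjusted p below 0.05 occurred in 3 of the 11, against 4040 of all 21945 genes. Without wild-type cortex library 2, 3 of 11 were called (1 higher and 2 lower). In hippocampus Ell2 rose while Ttc37 and Pou5f2 fell, which is 25.0% of the group, near the 29.2% of all genes. Ttc37, a scaffold of the SKI complex that feeds RNA to the exosome, had 1631, 1574 and 1546 normalized counts in wild-type hippocampus and 1319.96, 1085 and 1263 in knockout. The groups were apart (-0.38 ± 0.08, limma adjusted p = 0.00989), and with the length trend removed the difference was -0.08 (adjusted p = 0.517). Trip13, an ATPase of meiosis and the spindle checkpoint 0.284 Mb after Tert, stayed between 24.9 and 31.0 in cortex and between 33.6 and 63.5 in hippocampus, with overlapping groups.

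The group of 11 genes listed under trafficking, cytoskeleton and calcium sensing had 5 rises and no falls in hippocampus: Clptm1l, Ube2ql1, Rhobtb3, Mctp1 and Fam172a. The list name describes Ube2ql1 and Fam172a only loosely. Of all genes, 14.1% rose and 15.1% fell, and with the length trend removed 3 of the 11 were called higher and none lower. None of the 11 was called in cortex by limma, and 1 was without wild-type cortex library 2. With all cortex libraries, 2 of the 11 had an unadjusted p below 0.05, against 4040 of all 21945 genes. Ube2ql1, a ubiquitin-conjugating enzyme family member, had 12938, 14856 and 14251 normalized counts in wild-type hippocampus and 16616, 16789.8 and 15911 in knockout (0.23, limma adjusted p = 0.0192). It was among the most abundant of the named genes, at 6054 normalized counts per kb of exon in wild-type cortex, against 5637 for Sdha. Its call was lost without knockout library 1 (0.0647), knockout library 2 (0.0757) or wild-type library 3 (0.0611). With the length trend removed Ube2ql1 was not called in hippocampus either (0.18, adjusted p = 0.0614).

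Mctp1, a calcium-binding membrane protein with C2 domains, had 2323, 1657 and 2114 normalized counts in wild-type cortex and 2773, 3882 and 3241 in knockout. Every knockout library was higher than every wild-type library (0.70 ± 0.16 on the log2 scale, limma adjusted p = 0.0829). Without wild-type cortex library 2 Mctp1 was called higher (0.56, adjusted p = 0.0123). Beside it, the summed level of 11 striatal neuron markers was 18670 to 19230 in wild-type cortex and 41920, 67080 and 54000 in knockout libraries 1, 2 and 3, with 10 of the 11 called higher and none at 0. Choroid plexus markers (8, none at 0, 1 called higher) summed to 1500 to 1776 in wild-type cortex and to 2606, 11480 and 7130 in those knockout libraries. Mctp1 followed the same order across the knockout libraries, and the part of either list in its difference was not tested. In hippocampus, where 2 of the 11 markers were called higher and 2 lower (summed level 17620 to 20910 in wild type and 14840 to 15580 in knockout), Mctp1 had 3334, 3646 and 3462 against 3857, 3889 and 4142 (0.19, adjusted p = 0.027). That call was lost with each hippocampus library left out except wild-type library 2 (adjusted p 0.0516 to 0.0957 in the 5 fits). Nkd2, an inhibitor of Wnt signalling 0.192 Mb after Tert, had 300.2, 275 and 255 in wild-type cortex against 228, 213 and 221 in knockout, and in hippocampus 419, 557 and 539.6 against 572, 562 and 571. The groups were apart in both tissues and in opposite directions, with no call in either (-0.32 and 0.18 on the log2 scale) and a difference between tissues of 0.50 ± 0.16 (adjusted p = 0.102).

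The 4 membrane carriers had no call in either tissue by limma with all libraries, and none of the 3 tested in cortex or the 4 in hippocampus had an unadjusted p below 0.05. Slc12a7, a potassium and chloride cotransporter, had 1012, 539 and 771 normalized counts in wild-type hippocampus and 537, 561 and 576 in knockout (-0.43, adjusted p = 0.151). Without wild-type library 2 it was called lower (-0.66, adjusted p = 0.00457), and without wild-type library 1 its difference was -0.21 (0.328). Its spread was in the wild-type libraries, of which libraries 1 and 3 were high. The 8 choroid plexus markers summed to 352200, 12630 and 182500 in the same 3 libraries and to 9254 to 18440 in knockout. Endothelial markers, also 8, summed to 35860, 15280 and 25510 in those wild-type libraries and to 19230 to 19430 in knockout. Slc9a3, a sodium and proton exchanger, had overlapping groups in both tissues (90.2 to 158 against 120.04 to 160.5 in cortex, and 95.6 to 112 against 104 to 127 in hippocampus).

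Of the 3 peptidase genes, Cast, which encodes calpastatin, the inhibitor of calpains, had 1065, 600.4 and 828 normalized counts in wild-type hippocampus and 461, 554 and 499.9 in knockout. The wild-type order was that of the choroid plexus and endothelial sums given for Slc12a7, and their part in the difference was not tested. Cast fell by 0.68 ± 0.19 on the log2 scale (limma adjusted p = 0.0319). Without wild-type library 1 the change was -0.49 (adjusted p = 0.0448), and the call was lost without wild-type library 3 (0.0989) or knockout library 1, 2 or 3 (0.0974, 0.0637 and 0.0895). With the length trend removed it was -0.40 (adjusted p = 0.197). Cast overlaps Erap1, an aminopeptidase that trims peptides for antigen presentation, on the opposite strand. Erap1 had 525 to 615 in wild-type and 624 to 748 in knockout cortex (0.24, adjusted p = 0.289), and overlapping groups in hippocampus. Pcsk1, the proprotein convertase of neuroendocrine cells, had overlapping groups in both tissues with all libraries, and was called lower in cortex without wild-type library 2 (-0.23, adjusted p = 0.0172).

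The remaining hippocampus calls lay at the far end of the window or in genes known only by a clone name. Ptdss1, a phosphatidylserine synthase, rose from 3881 ± 63.5 to 4426 ± 113 (SD, n = 3 each; 0.19, limma adjusted p = 0.00988), and Mterf3, a mitochondrial transcription factor whose exons overlap those of Ptdss1 on the opposite strand, fell from 1046 ± 69.9 to 855 ± 60.6 (-0.29, adjusted p = 0.0259). The Mterf3 call was lost without knockout library 1 (0.0842), knockout library 2 (0.0921), wild-type library 1 (0.062) or wild-type library 3 (0.099). Gm10037 fell by 0.35 (adjusted p = 0.0343) and 1700001L19Rik by 0.23 (adjusted p = 0.0495) on the log2 scale, 2 genes named after their values were seen. The Gm10037 call held without wild-type library 1 only (0.0647 to 0.113 without each other library), and that of 1700001L19Rik was lost with any library left out (0.0707 to 0.167). In all, 11 of the 22 hippocampus calls held with each library left out in turn, among them Ptdss1, Zfp455, Zfp729a, Zfp738, Ice1, Ccdc127, Glrx, Spata9, Ttc37 and Pou5f2.

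Falls in hippocampus were more frequent among the longest transcripts, length being that of all annotated exons merged, although over all 84 genes the Spearman rank correlation of fold change with length was only -0.111 (a description across genes that share libraries). Of the 15 flanking genes with over 8 kb of exon, 3 rose and 6 fell, with a median log2 fold change of -0.36. Protein-coding genes of that length elsewhere on chromosome 13 showed 7 higher and 50 lower of 90, with a median of -0.22. Among the 69 flanking genes with up to 8 kb, 7 rose and 6 fell. Once the trend along length over all genes was removed, 16 of the 84 flanking genes were called, 9 higher and 7 lower (19.0%), against 25.6% of all genes, and 15 of the 16 were among the 22. The 8 kb limit was chosen after the values were seen.

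**Figure D5:**
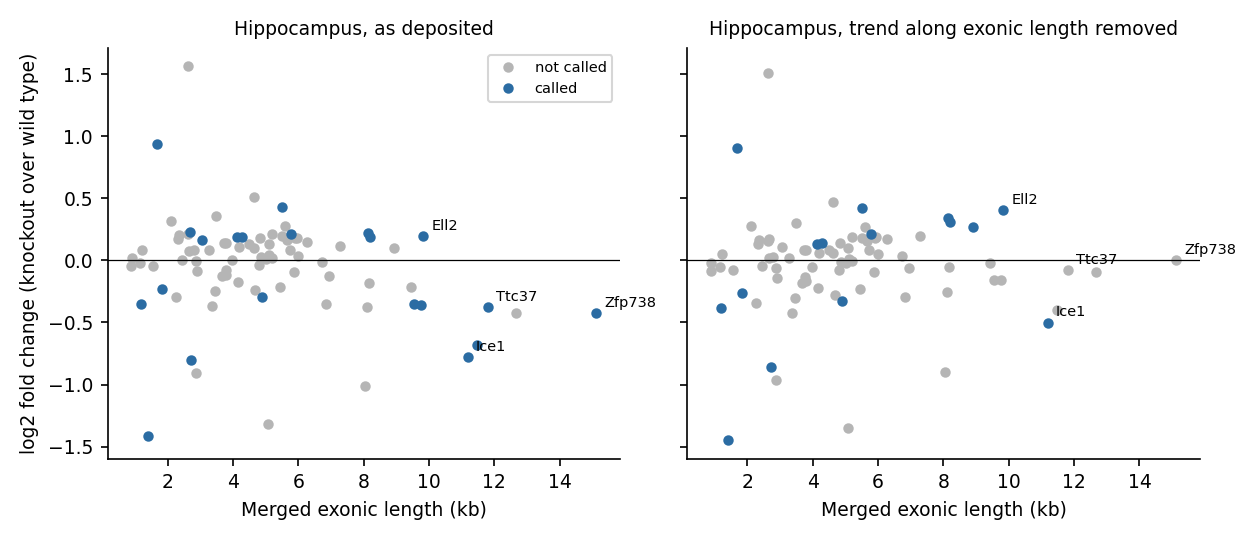
Log2 fold change in hippocampus (knockout over wild type, vertical axis) of the flanking genes reported here against merged exonic length in kb (horizontal axis), as deposited (left) and with the trend along exonic length over all genes removed (right); blue points were called. Zfp738, the longest, moves from -0.42 to 0.00, and Ice1, with 11.2 kb of exon, from -0.78 to -0.50.

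Between tissues, 58 of the 80 genes tested in both had the same sign. Across these 80 genes, which are not independent and share libraries within a tissue, the log2 fold changes had a Pearson r of 0.236 and a Spearman rank correlation of 0.377, given as a description. With all libraries 1 gene was called in both tissues, and 60 of all 84 flanking genes were called in neither. With wild-type cortex library 2 left out, 10 of the 16 cortex calls were also hippocampus calls, all 10 in the same direction. No matching share over all genes is given here for the same sign or for the shared calls. Neither count is therefore read as a trait of the flanking genes. The test of the difference between tissues called 0 of the 80 genes by limma, against 3.02% of all 21282 genes. At an unadjusted p below 0.05 there were 11 of the 80, against 22.6% of all genes. The smallest adjusted p was 0.0967, for Zfp729a. Without wild-type cortex library 2 that test called 3 genes, Sdha (0.16, adjusted p = 0.0445), Zfp729a (-0.23, 0.0446) and Ice1 (-0.40, 0.000611). Leaving out wild-type hippocampus library 2 gave 1, Cast (-0.73, 0.036).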

How the data were processed

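RNA sequencing libraries of wild-type and knockout cortex and hippocampus, 3 per group, were analysed from 1 deposited table per tissue. The authors deposited a signal per gene that the table names call normalized counts; per the submitters' processing notes, STAR, HTSeq, DESeq2 and GRCm38 were used, whose versions and settings the sources used here do not state. In each library 100% of values were within 0.001 of a whole multiple of 1 step, as read counts divided by a size factor would be. For cortex wild-type libraries 1 and 2 the step lies too near 1 for that reading to be checked, so totals there are estimated. Up to 3 reads can stand behind a value of 0 (counting error only). Each tissue's table has its own scaling, so levels were not compared between tissues.

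Gene rows were matched to the GENCODE annotation of GRCm38 (55141 of 55487; 346 did not match). Genotypes were compared per tissue with limma 3.58.1 in R 4.3.3 (trended prior variance) on log2(normalized count + 1), over genes averaging 10 or more, with Benjamini-Hochberg adjustment over all genes tested and calls below 0.05. The added 1 makes the fold changes of low genes smaller. The log2 fold changes are differences of mean log2 values, so where libraries are uneven they can differ from the ratio of means. The difference between tissues was the interaction in 1 fit over all 12 libraries. Whether cortex and hippocampus libraries share mice is not stated, so that fit took the libraries as independent. The length trend was a loess curve (span 0.3) fitted in each library over all genes tested that matched the annotation. It followed the library's deviation from the gene mean along log2 exonic length, and was subtracted before the limma fit. The limma fit per tissue was first tested on simulated counts. These had no outlying library and no length trend, so that test does not cover those features of the data. On reads recovered from the hippocampus table, edgeR 4.0.16 and DESeq2 1.42.0 were alternatives.

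The 32 genes named by rule were the 4 nearest to Tert on each side, up to 12 called per direction and tissue whose groups do not overlap, those called in both tissues, up to 3 per role with the smallest p, and up to 5 with the smallest p for the difference between tissues, without clone-named genes. Other genes were named after their values were seen. One gene that the rule names is counted in the totals but not reported here. Members, role lists, marker lists and the distance and length classes were chosen with earlier results of these data known.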

Additional observations from a re-analysis of the deposited data

How the results depend on the processing

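Left out in turn, single libraries gave 1 to 16 flanking genes called in cortex (3 as reported) and 12 to 28 in hippocampus (22 as reported). In cortex, 1 gene was called with no filter on low values, 1 without a trend in the prior variance, 1 with the replicate block, 6 with the length trend removed and 0 in a window of 2 Mb around Tert. In hippocampus, 4 were called in the window of 2 Mb and 14 without genes whose exons overlap another, and edgeR (21), DESeq2 (22), quantile normalization (26), the replicate block (19) and removal of the length trend (16) stayed within 1.5 times. The median log2 fold change in hippocampus, 0.02 as reported, was 0.094 with quantile normalization and 0.0832 without the zinc finger genes. The difference between tissues called 0 to 3 genes with single libraries left out. The 1 named gene that reversed was Zfp738 in hippocampus, at 0.0012 with the length trend removed, which by construction takes out what follows length. Over 431 comparisons of 31 named genes in cortex, 403 kept their direction and side of the threshold, 16 lost the call and 12 gained it; over 507 of 32 named genes in hippocampus, 455 kept it, 47 lost it and 4 gained it. A sign changed with no call on either side in 17 and 9 of them. The cause of the other shifts was not tested. Deviations of same-numbered wild-type and knockout libraries of a tissue had correlations of -0.0649 to 0.00474 in cortex and -0.0266 to 0.0915 in hippocampus. Differently numbered libraries had -0.0495 to 0.0746 and -0.0983 to 0.121. No shared deviation by number was seen, but correlations of this kind cannot settle whether the numbers pair the libraries. Pairing of cortex with hippocampus libraries was not examined. A count test of cortex was not run. Depth limits Slc6a3 in both tissues and Slc6a19 in cortex.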
